A study of Homo sapiens with 24 samples.

Results

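Messenger RNA levels of 5 enzymes of polyamine metabolism were followed in LNCaP cells after siRNA transfection. The enzymes are ODC1, AMD1, SRM, SMS and SAT1, and they were taken as every array probe whose RefSeq accession maps to one of these genes. They are 5 of the 20992 genes that could be named in this way on the 24 h array and of the 22439 on the 48 h array. Between them they had 9 probes at 24 h and 7 at 48 h, and all of these probes stood well above background on every array used.

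LNCaP is an established line of human prostate cancer cells. The cells received si-A1, which is directed at the long noncoding RNA TAPIR-1, or si-A2, which is directed at TAPIR-2, or the nontargeting si-SCRL (called scramble here), and RNA was taken after 24 h or 48 h. Each of the 6 groups had 4 biological replicates with an Agilent array each. The array of 48 h si-A2 replicate 2 stood apart as dim, with a median processed intensity of 13.9 against 20.4 to 32.2 on the others of that time point, and was left out, so that 23 of 24 arrays were used. Each transcript was targeted by 1 siRNA on these arrays, so an effect of the siRNA itself and an effect of losing the transcript cannot be told apart. RNA came from whole cultures, in which fewer cells with a transcript and less of it per cell cannot be told apart.

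Polyamines (putrescine, spermidine and spermine) are small cations that bind nucleic acids and are needed for growth and translation. ODC1 makes putrescine from ornithine, AMD1 makes the aminopropyl donor from S-adenosylmethionine, SRM adds an aminopropyl group to putrescine to give spermidine, and SMS adds a further one to give spermine. SAT1 acetylates spermidine and spermine, which sends them to oxidation or export. The prostate is known for its high output of polyamines into seminal fluid.

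The promoter sequences of SMS, AMD1 and SRM are shown as the 250 bases before the start of transcription. They are given 5′ to 3′ on the strand of the gene, from RefSeq on GRCh38.p14. SMS (chrX:21940459-21940708, plus strand) and AMD1 (chr6:110874535-110874784, plus strand) are shown because they fell 48 h after si-A1, and SRM (chr1:11060019-11060268, minus strand) because it was the member that measured higher after both siRNAs. Capitals mark each CACGTG (the E-box read by MYC and its partners) and each CCAAT, on either strand (ATTGG when read on the other one).
SMS: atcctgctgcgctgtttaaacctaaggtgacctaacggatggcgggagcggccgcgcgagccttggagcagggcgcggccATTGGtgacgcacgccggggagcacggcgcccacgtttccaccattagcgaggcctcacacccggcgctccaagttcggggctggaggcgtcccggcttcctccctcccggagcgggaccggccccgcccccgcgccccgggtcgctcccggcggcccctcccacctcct
AMD1: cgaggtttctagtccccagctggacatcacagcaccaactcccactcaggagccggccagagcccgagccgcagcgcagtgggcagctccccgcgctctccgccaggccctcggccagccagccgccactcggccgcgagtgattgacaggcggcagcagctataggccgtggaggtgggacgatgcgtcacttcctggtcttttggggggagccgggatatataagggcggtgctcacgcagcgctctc
SRM: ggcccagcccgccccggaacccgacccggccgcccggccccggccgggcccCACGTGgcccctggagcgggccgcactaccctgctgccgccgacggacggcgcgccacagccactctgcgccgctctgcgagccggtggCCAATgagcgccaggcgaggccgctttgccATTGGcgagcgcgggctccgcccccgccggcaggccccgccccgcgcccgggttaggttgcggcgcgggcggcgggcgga

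In these windows SMS held 1 CCAAT and no CACGTG, AMD1 held neither, and SRM held 1 CACGTG and 2 CCAAT. SAT1 held 2 CCAAT at its single listed start. RefSeq lists 2 starts for ODC1, of which 1 held a CACGTG, and 3 for AMD1, of which 1 held a CCAAT and the other two differ by 1 base in position. Of 35116 promoters of the same length, 6.34% held CACGTG and 32% held CCAAT, so a match is a description of the letters and is no evidence of a site.

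The value given for each array is the log2 of the processed intensity after quantile normalization among the arrays of a time point, and levels of different probes are not set against each other. Values of a group are listed in the order of the replicates, which at 48 h are 1, 3 and 4 for si-A2. At each time point, replicates 1 and 2 were on a first slide and replicates 3 and 4 on a second. A siRNA always had the same column on the slide, so siRNA and position cannot be told apart. A probe is said to have passed, or to have risen or fallen, at a limma p below 0.01 after Benjamini-Hochberg adjustment over all probes tested together with a log2 fold change of 0.5 or more in either direction. Each gene is described by its brightest probe, and its other probes are given beside it for part of the comparisons.

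The labelled cell type was checked on its markers. The luminal prostate genes KLK3, KLK2, FOLH1, TMPRSS2, STEAP2, KRT8, KRT18 and HOXB13 were above the background threshold, and also well above background, on every array used at both time points. Of the basal, fibroblast, leukocyte and endothelial genes, KRT5, COL1A2 and LUM were not well above background on any array. By the background threshold, which is another measure, KRT5 was above on 1 and COL1A2 on 2 of 12 arrays at 24 h. PTPRC, CD3E, VWF and CDH5 were well above background on every array, and the part of such probes in the results was not tested. TAPIR-1 was not measured by a probe used here. A TAPIR-2 probe lay between 4.81 and 5.28 with scramble, between 4.19 and 4.95 with si-A1 and between 3.12 and 4.70 with si-A2 at 24 h, and its log2 fold change after si-A2 was -0.98 (adjusted p = 0.230, limma). At 48 h its log2 fold change after si-A2 was 0.23 (adjusted p = 0.700, limma), and a second TAPIR-2 probe of the 48 h array was well above background on none of the arrays, so the arrays alone do not check the label of either siRNA.

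SMS was the member that moved most. It fell to 0.399 of its scramble level 24 h after si-A1 and to 0.318 of it after 48 h. After si-A2 its brightest probe measured close to scramble at 24 h and did not pass at either time point. At 24 h its log2 intensity was 11.44, 11.58, 11.76 and 11.42 with scramble, 10.22, 10.22, 10.28 and 10.20 with si-A1, and 11.55, 11.53, 11.57 and 11.50 with si-A2. All 4 si-A1 arrays lay more than 1 log2 unit under every other array, and the si-A2 arrays lay within the range of the scramble arrays. The log2 fold change after si-A1 was -1.32 (SE 0.116, adjusted p = 0.000176, limma), with -1.29 on slide 1 and -1.35 on slide 2.

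SMS after si-A2 at 24 h had a log2 fold change of -0.01, with a 95% confidence interval from -0.27 to 0.24 (adjusted p = 0.977, limma). Set directly against si-A1, SMS was higher after si-A2 by 1.31 on the log2 scale (SE 0.116, adjusted p = 0.000647, limma). This call was lost (adjusted p = 0.0189) where the test was limited to probes whose interquartile range over the arrays reached 0.5.

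The 24 h array carried 2 further SMS probes. On the second, log2 intensities were between 9.33 and 10.15 with scramble, between 8.15 and 8.49 with si-A1 and between 9.47 and 9.78 with si-A2, so that si-A1 again lay apart. It fell by 1.36 after si-A1 (adjusted p = 0.00270, limma) and was higher by 1.27 in si-A2 against si-A1 (adjusted p = 0.00956, limma). On the third the 4 scramble arrays were spread widely, at 9.17, 8.19, 11.01 and 8.51, and the si-A1 arrays, between 7.39 and 7.79, still lay under all of them. Its log2 fold change after si-A1 was -1.60, with the larger SE of 0.463 (adjusted p = 0.136, limma), and did not pass. In si-A2 against si-A1 the third probe was higher by 1.11 (adjusted p = 0.384, limma), which did not pass either. Against scramble, the log2 fold change after si-A2 was -0.09 on the second probe and -0.49 on the third, and neither passed. That of the third probe was 0.03 on slide 1 and -1.01 on slide 2.

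At 48 h the log2 intensity of SMS was 11.04, 11.42, 10.84 and 10.89 with scramble, 9.30, 9.35, 9.32 and 9.62 with si-A1, and 10.76, 10.74 and 11.18 on the 3 si-A2 arrays. The si-A1 arrays again lay under all others with no overlap. SMS fell by 1.65 on the log2 scale after si-A1 (SE 0.163, adjusted p = 0.00031, limma). With si-A2 the log2 fold change was -0.15, with a 95% confidence interval from -0.55 to 0.25. It was -0.47 on slide 1, where only replicate 1 of si-A2 was used, and 0.09 on slide 2.

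In si-A2 against si-A1, SMS was higher by 1.50 at 48 h (SE 0.177, adjusted p = 0.00334, limma). This difference was between 1.36 and 1.61 whichever array was left out, but its adjusted p rose to between 0.0117 and 0.0208 without si-A1 replicate 1, 2 or 3 or without si-A2 replicate 1 or 4. With only the si-A1 and si-A2 arrays in the fit its adjusted p was 0.0160. The fall after si-A1 passed with each array of its time point left out in turn. With the dim array kept in it was -1.67 at 48 h and did not pass (adjusted p = 0.788), nor did the difference between the siRNAs, at 0.79 (adjusted p = 0.594).

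**Figure D1:**
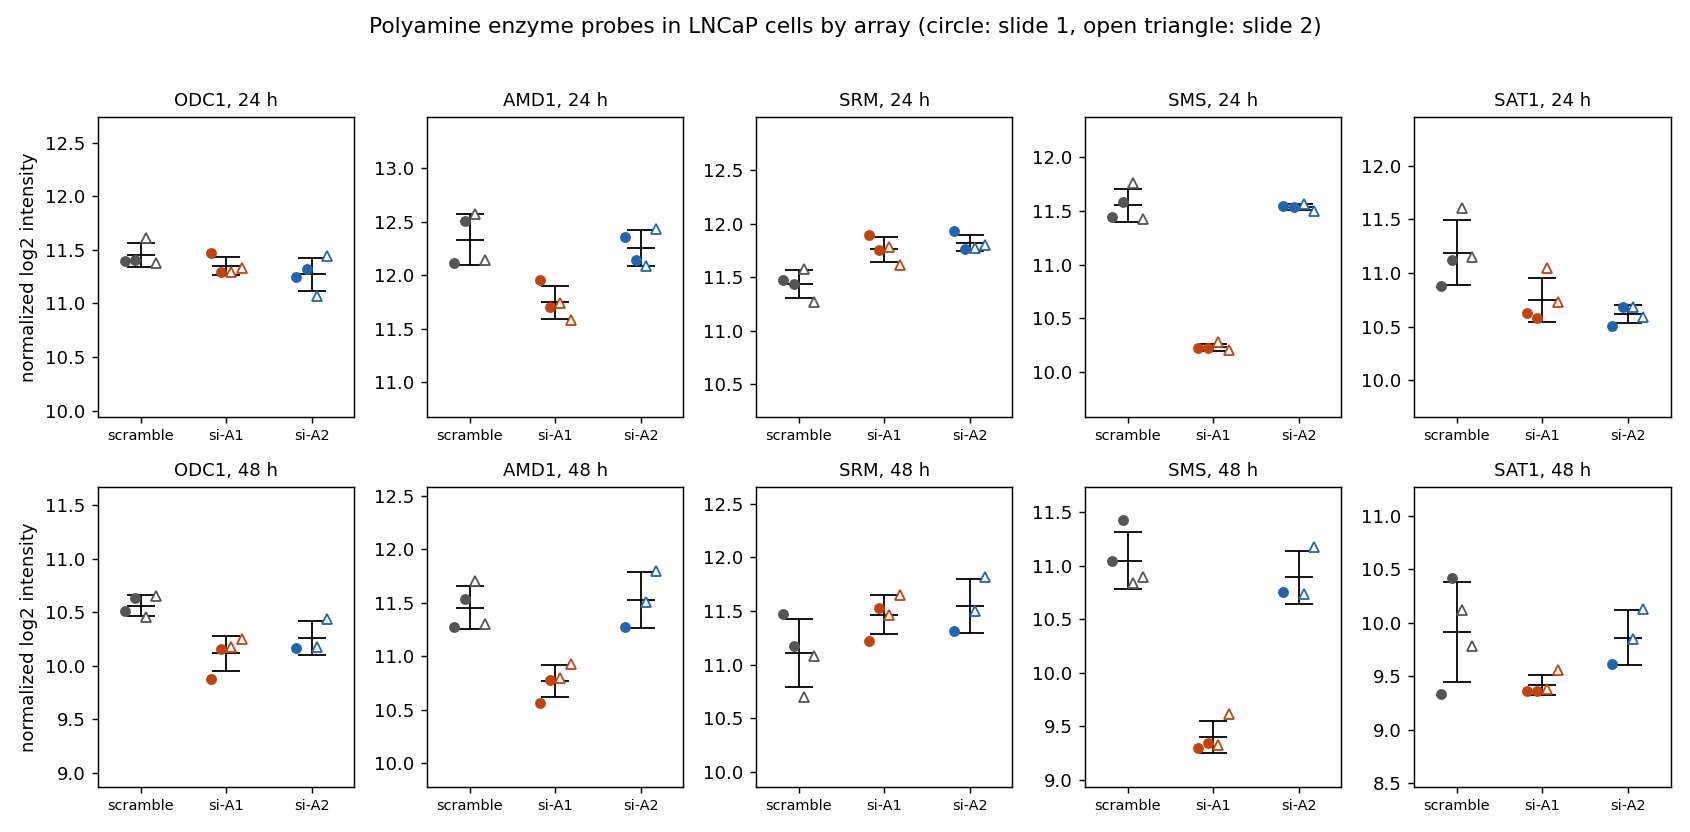
Normalized log2 intensity (vertical axis, spanning the same number of log2 units in each panel) of the brightest probe of each polyamine enzyme on every array used, by siRNA, at 24 h (top) and 48 h (bottom). Circles are arrays of slide 1, open triangles arrays of slide 2, and bars show mean and SD of 4 arrays a group (3 for si-A2 at 48 h). In both SMS panels the si-A1 arrays lie apart from all others, at 10.20 to 10.28 after 24 h and 9.30 to 9.62 after 48 h.

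AMD1, the decarboxylase that supplies the aminopropyl groups for both synthases, was lower after si-A1 and, on its brightest probe, near scramble after si-A2. At 24 h its log2 intensity was 12.11, 12.51, 12.57 and 12.15 with scramble, 11.96, 11.71, 11.74 and 11.59 with si-A1, and 12.36, 12.14, 12.09 and 12.43 with si-A2. The si-A1 arrays lay under all others, si-A1 replicate 1 by the smallest margin. The log2 fold change after si-A1 was -0.59 (SE 0.158, adjusted p = 0.104, limma), which did not pass, and that after si-A2 was -0.08 (adjusted p = 0.886). Its second probe overlapped between scramble and si-A1 at 24 h, with a log2 fold change of -0.29 (adjusted p = 0.522), made up of 0.00 on slide 1 and -0.59 on slide 2.

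At 48 h the log2 intensity of AMD1 was 11.27, 11.53, 11.70 and 11.31 with scramble, 10.56, 10.78, 10.79 and 10.92 with si-A1, and 11.28, 11.51 and 11.80 with si-A2. The si-A1 arrays lay under all others here too. AMD1 fell to 0.621 of its scramble level after si-A1, a log2 fold change of -0.69 (SE 0.129, adjusted p = 0.00839, limma), and its second probe fell by 0.60 (adjusted p = 0.00516). With the replicate number as a block, the adjusted p of the brightest probe was 0.0157, and with an array left out it passed in 2 of 11 fits, those without scramble replicate 4 and without si-A2 replicate 4 (adjusted p up to 0.0291 in the others). With the dim array kept in its log2 fold change was -0.68 and did not pass (adjusted p = 1).

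Against si-A1, AMD1 at 48 h was higher after si-A2 by 0.73 (adjusted p = 0.0219, limma) on its brightest probe, which did not pass, and by 0.84 (adjusted p = 0.00433) on its second probe, which did. The brightest probe passed in this comparison with scaling on the 75th percentile (adjusted p = 0.00681) and with normexp background correction (adjusted p = 0.00325). Against scramble, AMD1 after si-A2 at 48 h was at 0.04 on its brightest probe (adjusted p = 0.923, limma). Its second probe was higher than scramble by 0.24 (adjusted p = 0.297), with 0.34 on slide 1 and 0.17 on slide 2, and did not pass.

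**Figure D2:**
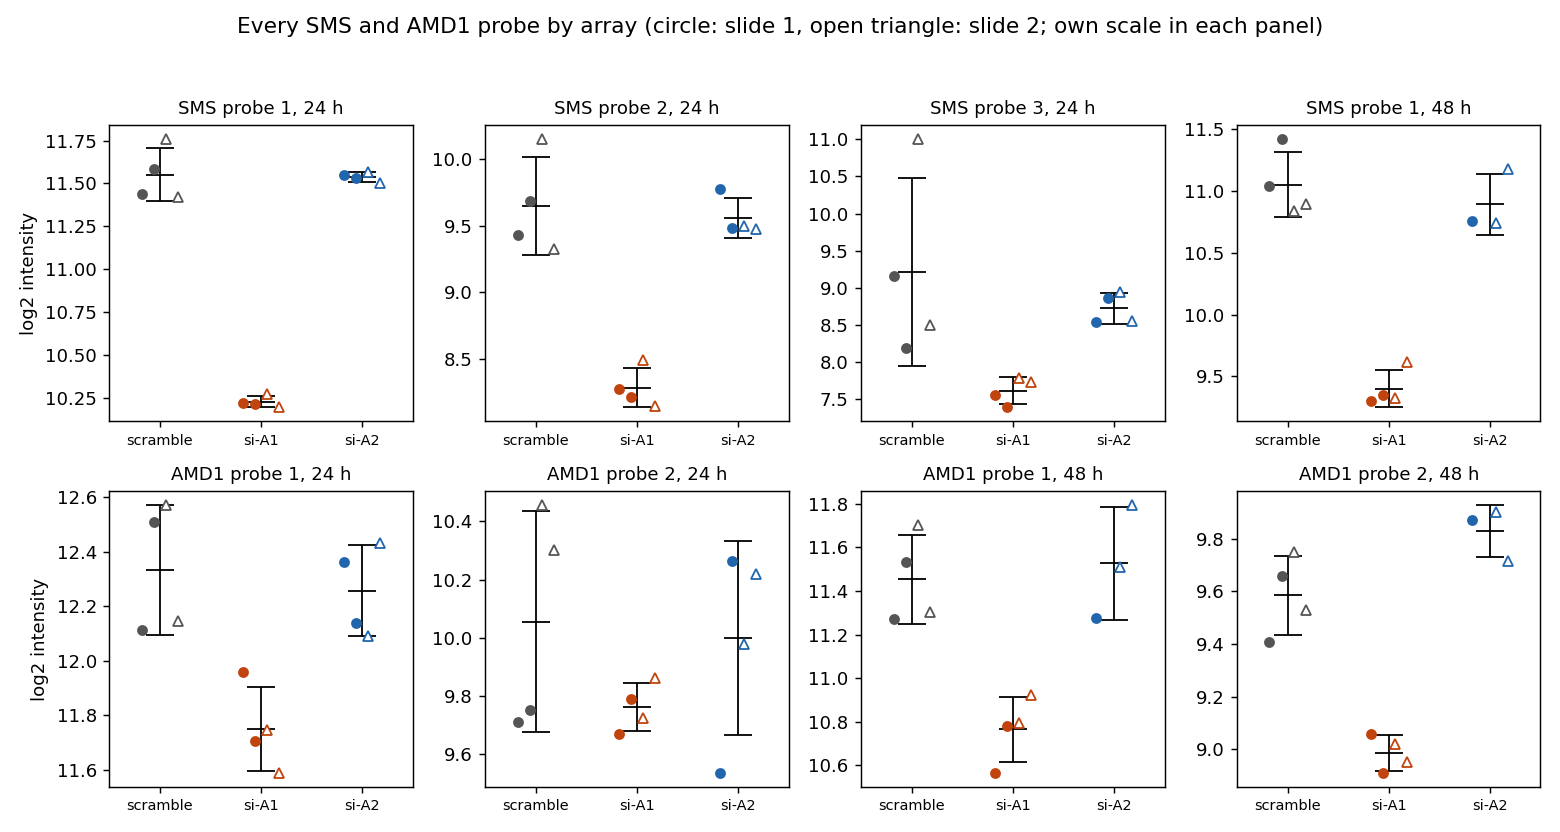
Normalized log2 intensity of every SMS probe (top) and every AMD1 probe (bottom) on each array by siRNA, with circles for slide 1, open triangles for slide 2, mean and SD as bars and an own vertical scale in each panel. SMS has 3 probes at 24 h and 1 at 48 h. The third SMS probe shows the scramble array at 11.01 that widens its spread, and the si-A1 arrays are lowest in all SMS panels.

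ODC1, the first enzyme of the pathway and one that cells hold under tight control, showed little change at 24 h. Its log2 intensity was then 11.40, 11.41, 11.61 and 11.37 with scramble, 11.47, 11.30, 11.29 and 11.33 with si-A1, and 11.25, 11.32, 11.07 and 11.44 with si-A2. The groups overlapped, with log2 fold changes of -0.10 after si-A1 (95% confidence interval -0.38 to 0.18) and -0.18 after si-A2 (-0.46 to 0.10). At 48 h it was 10.51, 10.64, 10.45 and 10.65 with scramble, 9.88, 10.15, 10.18 and 10.25 with si-A1, and 10.16, 10.18 and 10.44 with si-A2. Every siRNA array then lay under every scramble array. The log2 fold changes of -0.45 after si-A1 (adjusted p = 0.0246, limma) and -0.32 after si-A2 (adjusted p = 0.206) did not pass.

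SRM, the spermidine synthase, was the member that measured higher than scramble after both siRNAs at both time points. At 24 h its log2 intensity was 11.48, 11.43, 11.58 and 11.27 with scramble, 11.89, 11.75, 11.78 and 11.61 with si-A1, and 11.93, 11.76, 11.77 and 11.80 with si-A2. Every siRNA array lay above every scramble array. The log2 fold changes were 0.32 after si-A1 (adjusted p = 0.271, limma) and 0.38 after si-A2 (adjusted p = 0.197), and neither passed. The difference between both siRNAs was 0.06, with a 95% confidence interval from -0.21 to 0.32.

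At 48 h SRM overlapped between the groups, with 11.47, 11.17, 10.70 and 11.08 with scramble, 11.22, 11.53, 11.46 and 11.65 with si-A1, and 11.31, 11.50 and 11.82 with si-A2. Its log2 fold change after si-A1 was 0.36 (adjusted p = 0.243, limma), with 0.05 on slide 1 and 0.67 on slide 2. After si-A2 it was 0.44 (adjusted p = 0.297), with -0.01 and 0.77 on these slides. With the dim array kept in, the value after si-A2 turned to -0.29. Without scramble replicate 3 the values after si-A1 and si-A2 were 0.21 and 0.27.

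SAT1, the acetyltransferase that starts polyamine breakdown, measured lower after both siRNAs at 24 h. Its log2 intensity was 10.88, 11.12, 11.61 and 11.15 with scramble, 10.63, 10.58, 11.04 and 10.73 with si-A1, and 10.51, 10.68, 10.68 and 10.59 with si-A2. The si-A2 arrays lay under all scramble arrays, and 1 si-A1 array reached into their range. The log2 fold changes of -0.44 after si-A1 (adjusted p = 0.216, limma) and -0.57 after si-A2 (adjusted p = 0.104) did not pass, nor did those of its second probe, -0.61 and -0.71. On the second probe the arrays of both siRNAs overlapped with those of scramble. Scramble replicate 3 was the highest scramble array on both probes, at 11.61 and 10.36. With an array left out, the brightest probe gave between -0.51 and -0.33 after si-A1 and between -0.65 and -0.46 after si-A2.

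At 48 h SAT1 was 9.33, 10.41, 10.12 and 9.78 with scramble, 9.36, 9.36, 9.38 and 9.56 with si-A1, and 9.61, 9.84 and 10.13 with si-A2. Scramble replicate 1 lay under all other arrays, and the rest of the scramble arrays above all si-A1 arrays. Its log2 fold changes were -0.49 after si-A1 (adjusted p = 0.165, limma) and -0.08 after si-A2 (95% confidence interval -0.60 to 0.45). The value after si-A1 was -0.27 without scramble replicate 2 and -0.68 without scramble replicate 1. The second SAT1 probe gave -0.50 after si-A1 (adjusted p = 0.241, limma) and -0.19 after si-A2 (adjusted p = 0.789).

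Counted over the members, 1 of 5 passed after si-A1 at 24 h (SMS), against 1.1% of all 44849 probes tested, and 4 had an unadjusted p below 0.05, as did 13% of all probes. None of 5 passed after si-A2 at 24 h by limma, against 0.928% of all probes, and 2 had an unadjusted p below 0.05, as did 11.7% of all probes. Between both siRNAs 1 of 5 passed (SMS), against 0.366% of all probes. Over the 5 members the median effect, as log2 fold change, was -0.44 for si-A1 and -0.08 for si-A2, beside 0.04 and 0.04 over all probes, and it was 0.06 for si-A2 against si-A1, beside -0.01.

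At 48 h, 2 of 5 members passed after si-A1 (SMS and AMD1), against 6.11% of all 45200 probes tested, and this was 1 of 5 with the replicate number as a block, when 1797 probes passed in place of 2761. An unadjusted p below 0.05 was found for 4 members and for 28.8% of all probes. After si-A2 none of 5 passed by limma, against 0.445% of all probes, and 1 had an unadjusted p below 0.05, as did 17.7% of all probes. With the block no probe at all passed after si-A2, in place of 201. Between both siRNAs 1 of 5 passed (SMS), against 1.45% of all probes, and 257 probes in place of 654 passed with the block. Over the 5 members the median effect, as log2 fold change, was -0.49 for si-A1 and -0.08 for si-A2, beside 0.05 and 0.00 over all probes, and for si-A2 against si-A1 it was 0.42, beside -0.04. The comparisons of a time point share arrays, so their values stand side by side and are no repeats of each other. The shares are over all probes tested, dim ones included. The members' brightest probes were brighter than at least 95.2% of these at 24 h and 91.1% at 48 h. Among probes well above background on at least 3 arrays, 641 of 35195 passed after si-A1 at 24 h and 3371 of 38451 at 48 h.

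**Figure D3:**
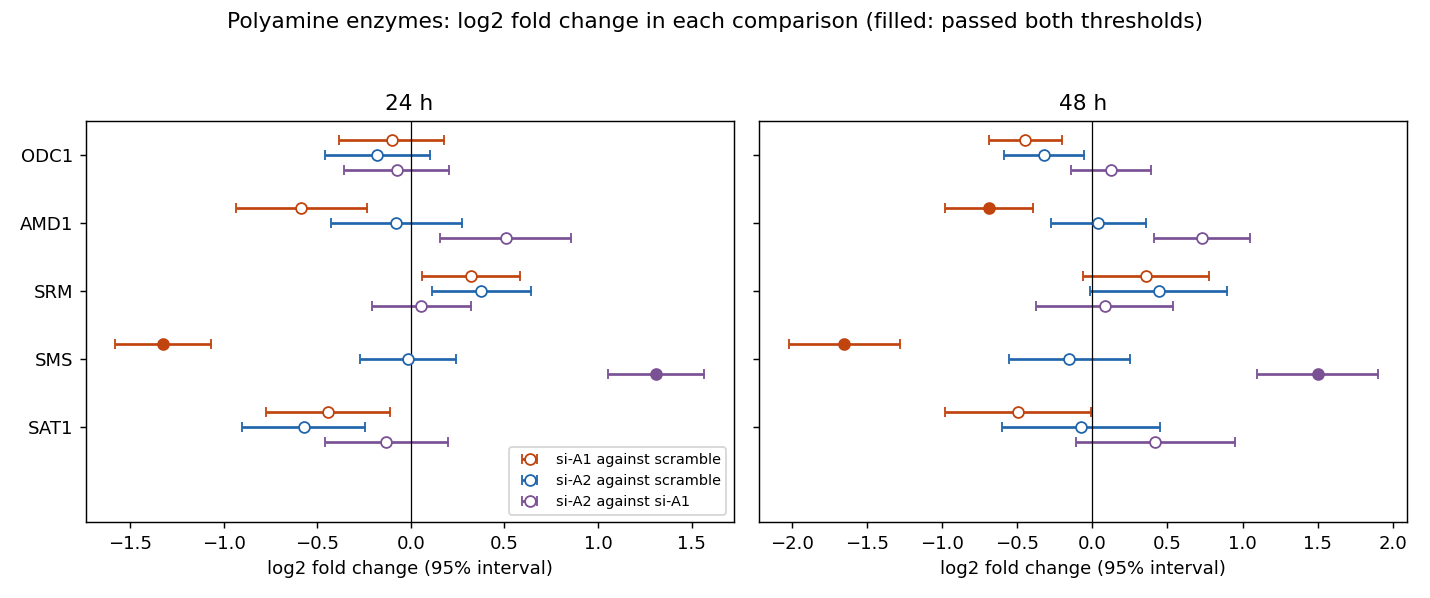
Log2 fold change (horizontal axis) of each polyamine enzyme in the 3 comparisons at 24 h and at 48 h, with 95% confidence intervals from limma and filled points for values that passed both thresholds. SMS lies at -1.32 and -1.65 after si-A1 and at -0.01 and -0.15 after si-A2.

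A change of the effects between the time points was tested by an interaction term, for the 35826 probes that are on both array versions and were above the background threshold at both time points. Each time point had an array version of its own, which cannot be told apart from time, so effects and not levels were compared. No member passed for si-A1, against 0.159% of these probes, and none for si-A2, against 0.0335%. An unadjusted p below 0.05 in limma was found for no member, beside 13.3% of these probes for si-A1 and 7.56% for si-A2. The effect of si-A1 on SMS differed by -0.14 at 48 h from that at 24 h, with a 95% confidence interval from -0.53 to 0.24. The value was -0.33 with each time point normalized separately and -0.35 with scaling on the 75th percentile, neither of which passed. With an array left out it was between -0.23 and -0.018, the latter without scramble replicate 2 of 48 h. The largest change among the members was that of SAT1 after si-A2, of 0.55 (95% confidence interval -0.02 to 1.12, unadjusted p = 0.0597, adjusted p = 0.685).

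Other genes of the pathway were taken from 6 lists with 28 genes, of which 27 were tested at 24 h and 25 at 48 h. MRI1 was under the background threshold at both time points, and AGMAT and ATP13A4 at 48 h. At 24 h none passed after si-A1 or si-A2 in limma, against 1.1% and 0.928% of all probes, and 1 rose in si-A2 against si-A1, against 0.366%. An unadjusted p below 0.05 was found for 6 of 27 genes after each siRNA, and for 13% and 11.7% of all probes. At 48 h, 2 rose and 2 fell after si-A1, or 16% of those tested, against 6.11% of all probes, and none passed after si-A2, against 0.445%. An unadjusted p below 0.05 was then found for 15 of 25 genes after si-A1 and for 9 after si-A2, beside 28.8% and 17.7% of all probes. The median log2 fold change of the tested genes after si-A1 was -0.01 at 24 h and -0.23 at 48 h, and after si-A2 it was -0.09 and -0.10.

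Antizymes bind ODC1, steer it to the proteasome and slow polyamine uptake, and antizyme inhibitors take antizyme away. OAZ1, the main antizyme, lay between 12.26 and 12.52 with scramble, between 11.55 and 11.68 with si-A1 and between 12.40 and 12.97 with si-A2 at 24 h. The si-A1 arrays again lay under all others. Its log2 fold change after si-A1 was -0.77 (adjusted p = 0.0168, limma), which did not pass, and in si-A2 against si-A1 it was higher by 1.03 (adjusted p = 0.00739), a call that held without scramble replicate 3 and was lost without any 1 of the other 11 arrays (adjusted p up to 0.0341), with the interquartile filter (0.0664) and with only the compared groups in the fit (0.0252). At 48 h OAZ1 lay between 11.54 and 11.80 with scramble, between 10.37 and 10.68 with si-A1 and between 11.45 and 11.77 with si-A2.

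OAZ1 fell by 1.08 after si-A1 at 48 h (adjusted p = 0.000385, limma), also with each array left out in turn, and its log2 fold change after si-A2 was -0.01 (adjusted p = 0.973). In si-A2 against si-A1 it was higher by 1.07 (adjusted p = 0.00270), with an adjusted p of up to 0.0246 when si-A2 replicate 1, si-A2 replicate 4, si-A1 replicate 3 or si-A1 replicate 4 was left out, and of 0.0194 with only the compared groups in the fit. AZIN2, an antizyme inhibitor, rose by 0.85 after si-A1 at 48 h (adjusted p = 0.00672, and 0.0190 with the replicate block), while its second probe did not pass, at 0.17. With normexp background correction its log2 fold change was 0.48, which did not pass, and its adjusted p was 0.0104 with the slide as a random block and 0.0128 with only the compared groups in the fit. It passed in 3 of 11 fits with an array left out, those without scramble replicate 3, si-A2 replicate 1 or si-A2 replicate 4 (adjusted p up to 0.0247 in the others). With the dim array kept in none of the 48 h calls of OAZ1, AZIN2, SAT2 and ATP13A3 held, with log2 fold changes after si-A1 of -1.07, 0.83, 0.64 and -0.76, and with OAZ1 at 0.07 in si-A2 against si-A1. Among the rest of this list at 24 h, AZIN2 was highest after si-A1 (0.37), and OAZ3 was highest (0.48) and AZIN1 lowest (-0.66) after si-A2, and none of these passed.

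Of the back-conversion enzymes, SAT2, a relative of SAT1 that prefers thialysine to polyamines, rose by 0.63 after si-A1 at 48 h (adjusted p = 0.00634, limma), from between 9.75 and 10.09 with scramble to between 10.48 and 10.68, but with the replicate block its adjusted p was 0.0156, and with an array left out it was up to 0.0220 and passed in 3 of 11 fits, those without si-A1 replicate 3, si-A2 replicate 1 or si-A2 replicate 4. At 24 h PAOX, the oxidase of acetylated polyamines, had the highest log2 fold change of this list after both siRNAs (0.50 and 0.36), and SAT2 (0.16) and SMOX (-0.24), the spermine oxidase, had the lowest after si-A1 and si-A2. None of these 24 h values passed.

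In the transport list ATP13A3, a P-type ATPase of the polyamine transporter family, fell by 0.74 after si-A1 at 48 h (adjusted p = 0.00258, limma, and 0.0102 with the replicate block), and both of its probes passed. Its adjusted p was up to 0.0119 without si-A1 replicate 1, 2 or 3, and it passed without any other array. Its log2 fold change after si-A2 at 48 h was -0.54 (adjusted p = 0.0485) and did not pass. At 24 h the lowest values were those of ATP13A2 after si-A1 (-0.63, adjusted p = 0.0288) and ATP13A3 after si-A2 (-0.61), and the highest those of SLC18B1, a vesicular polyamine transporter, at 0.26 and 0.33.

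No gene of the other lists passed in any comparison within a time point. Among the genes for hypusination of eIF5A, the use of spermidine to modify a translation factor, DOHH was highest at 24 h after both siRNAs (0.20 and 0.35) and EIF5A2 lowest (-0.01 and -0.60). Among the genes that supply ornithine, agmatine-derived putrescine or S-adenosylmethionine, MAT2A (0.30) and ARG1 (0.11) were highest and MAT2B (-0.21) and AGMAT (-0.28) lowest after si-A1 and si-A2. In the salvage of methylthioadenosine, the by-product of both synthases, MTAP was lowest (-0.53 and -0.37), and APIP (-0.14) and ENOPH1 (0.07) were highest.

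**Figure D4:**
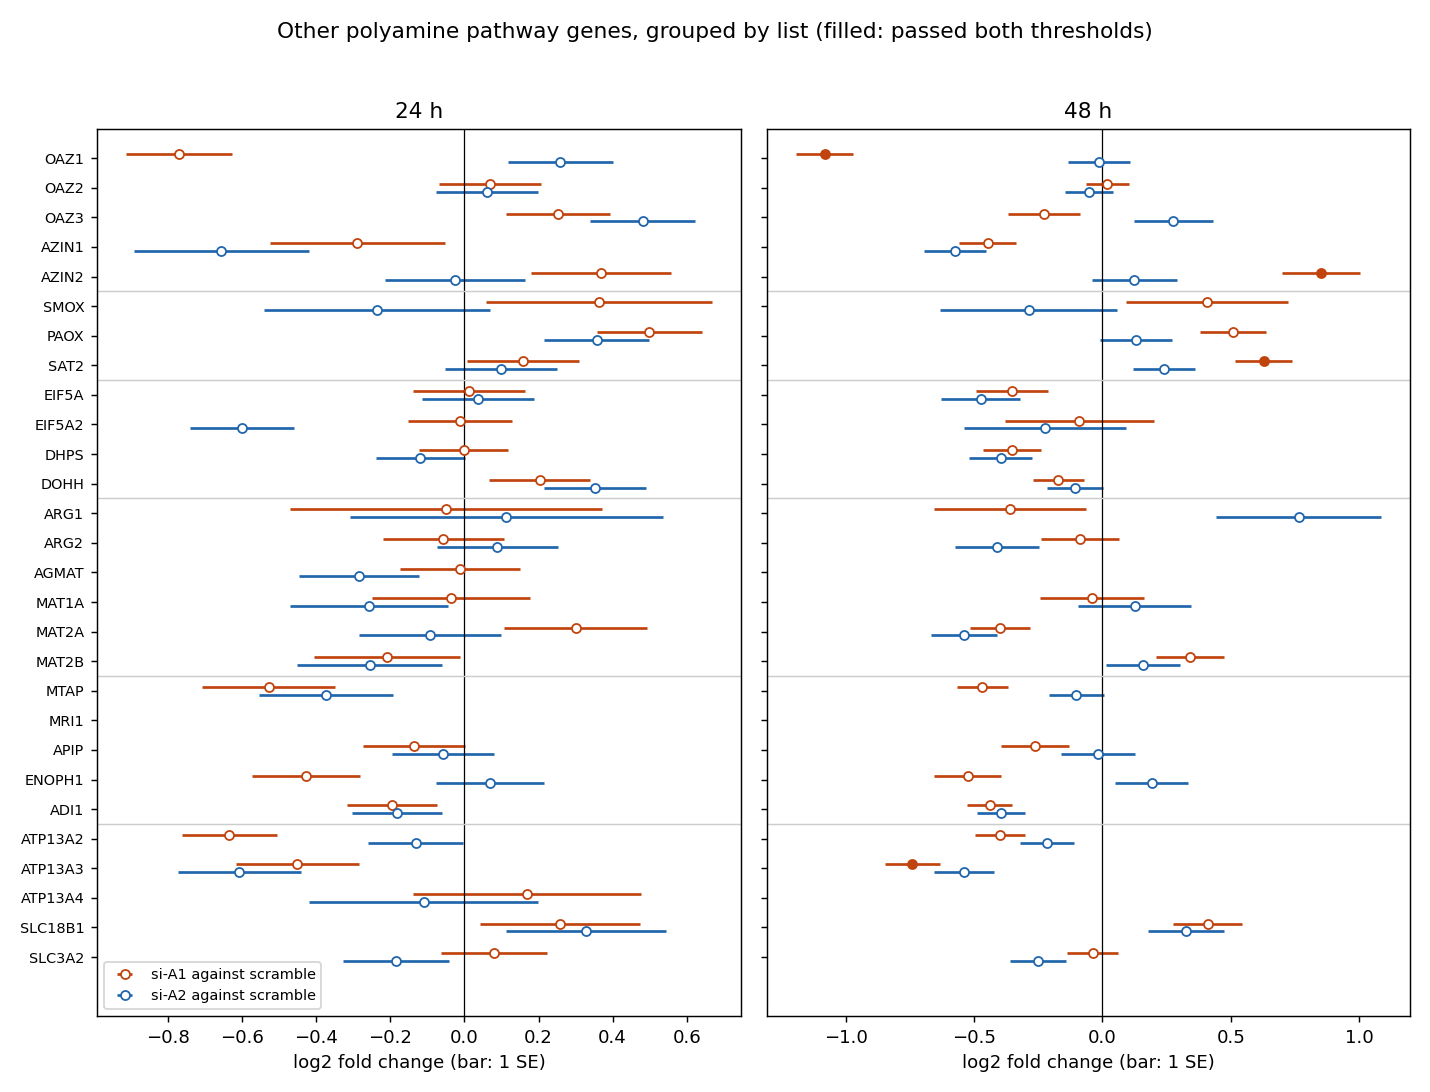
Log2 fold change against scramble (horizontal axis, bars of 1 SE) of 28 other genes of polyamine metabolism, grouped by list between the grey lines, for both siRNAs at each time point, with filled points for values that passed and no point where a gene was under the background threshold. OAZ1 stands lowest after si-A1 at both time points, at -0.77 and -1.08, and AZIN2 highest at 48 h, at 0.85.

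The genes most like each member were found by Pearson correlation over the 12 arrays of 24 h, after centring on slide means, among 16369 other genes with 1 probe each. The points share the 3 siRNA groups, so a like response to the siRNAs gives a high r, and the values are a description. For SMS these genes were SLC6A8, the creatine transporter (r = 0.996), CDS1, an enzyme of phospholipid synthesis (0.994), and ZNF32 (0.994). Over the 11 arrays of 48 h their r with SMS was 0.948, 0.938 and 0.975. SLC6A8 had a mean of 9.56 with scramble, 7.93 with si-A1 and 9.66 with si-A2 at 24 h, the same order of si-A1 under the other two as in SMS.

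For AMD1 the most similar genes were GSPT1, a translation termination factor (r = 0.991 at 24 h and 0.902 at 48 h), ARIH1, a ubiquitin ligase (0.979 and 0.839), and RSC1A1 (0.976 and 0.909). The genes were picked for a high r at 24 h, and every r listed for the 5 members was lower at 48 h. The genes most like ODC1 had the lowest r at 24 h, with EXT2 (0.923 and 0.439), TADA2A (0.916 and 0.703) and ENPP1 (0.911 and 0.760). Those of SRM were MRPS22, a mitochondrial ribosomal protein (0.985 and 0.213), HSD3B7 (0.952 and 0.309) and TCEAL1 (0.945 and 0.767). Those of SAT1 were ZDHHC13 (0.963 and 0.615), ZNF652 (0.960 and 0.392) and SLBP, the binding protein of histone mRNA stem-loops (0.956 and 0.610).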

How the data were processed

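Each of the 24 samples of LNCaP RNA was hybridised to a one-colour Agilent array. The authors deposited the Feature Extraction output of each array, whose processed signal is a linear intensity after background subtraction, not yet normalized between arrays. The authors also deposited tables of log2 values, which order the spots as the processed signal does and have 1 distribution in all arrays of a time point; their processing notes name R 3.4.3 and limma 3.34.8.

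The log2 processed intensity was quantile-normalized within a time point, control spots were dropped, outlier spots were set aside and repeated spots were averaged. Probes were named through RefSeq accessions (57.4% of 50599 at 24 h, 53.4% of 58201 at 48 h) and tested if above the mean plus 3 SD of the negative controls on at least 3 arrays. Linear models were fitted with limma 3.58.1 in R 4.3.3 (statmod 1.5.0, data.table, version 1.17.8), with the siRNA groups of a time point in 1 fit and the slide as a term. The interaction used all 23 arrays, normalized together. The dim array was left out, as in the study's methods. The fits were tested on simulated data.

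Median processed intensities ran from 24.4 to 57.2 (24 h) and from 20.4 to 32.2 (48 h). The number of arrays limits the precision, and the p-values measure the spread between the samples that the study's methods call biological replicates.

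At 48 h samples with the same replicate number deviated together, with correlations between 0.177 and 0.353 over 10 pairs, so the replicate number was used as a block beside the results whose call it changed. These numbers follow the slides, and samples of different number on the same slide correlated at between 0.0959 and 0.292. At 24 h the correlations were between -0.147 and 0.159.

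The members, the gene lists and the tests were chosen with earlier results of these data known. Named genes were the members, all genes of the lists as counts, with values for those that passed in any comparison and for the highest and lowest of each list after each siRNA at 24 h, and the 3 genes most like each member. Some marker genes are not reported here. Alternatives were other scaling, background correction and filters, the authors' log2 values, other treatments of the slide, the replicate block, 1 probe per gene, only the compared groups, a log2 fold change of at least 1, each array left out in turn, and the dim array kept in.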

Additional observations from a re-analysis of the deposited data

Results flagged for a closer look

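Of the 25 groups of 4 arrays of the members' brightest probes, 3 held an array whose gap to its neighbour was a large share of the range of the group, where chance gives about 1 in 20. ODC1 stood at 11.61 on scramble replicate 3 at 24 h, with the other arrays between 11.37 and 11.41. At 48 h, si-A1 replicate 4 was the highest array of its group for both SMS, at 9.62 against 9.30 to 9.35, and SAT1, at 9.56 against 9.36 to 9.38. Without this array SMS still fell after si-A1 in limma. What set these arrays apart was not tested.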

How the results depend on the processing

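The fall of SMS after si-A1 passed in limma under all 24 alternatives at 24 h and under all 23 at 48 h that left the dim array out, with log2 fold changes from -1.38 to -1.23 and from -1.75 to -1.52. Keeping the dim array in left no member of 5 past the thresholds after si-A1 at 48 h (SMS at -1.67, adjusted p = 0.788) and 0 in si-A2 against si-A1, and it turned AMD1 (-0.66) and SRM (-0.29) after si-A2, ODC1 (-0.16) and SRM (-0.64) in si-A2 against si-A1, and the changes of the si-A2 effect of AMD1 (-0.51) and SRM (-0.65). The number of members past the thresholds after si-A1 at 48 h was 1, AMD1 being lost, with no slide term, the replicate block, no filter on dim probes, the interquartile filter, only the compared groups or a log2 fold change of at least 1, and between 1 and 2 with an array left out. With no slide term AZIN2, SAT2 and ATP13A3 lost their calls too (adjusted p = 0.0400, 0.0208 and 0.0483), as did SAT2 with only the compared groups (0.0107). In si-A2 against si-A1 the number of members past the thresholds was 0 at 24 h with the interquartile filter, and at 48 h 2 with scaling on the 75th percentile or normexp, 0 with only the compared groups, and between 0 and 1 with an array left out.

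Values near 0 changed sign, and the cause was not tested. Scaling on the 75th percentile gave AMD1 0.044 and SMS 0.12 after si-A2 at 24 h, and -0.12 and -0.13 for the change of the si-A1 effect of AMD1 and SAT1, which were -0.10 and -0.052 with each time point normalized separately. With an array left out, the ranges after si-A2 were -0.068 to 0.061 for SMS and -0.17 to 0.018 for AMD1 at 24 h, and -0.068 to 0.13 for AMD1 and -0.24 to 0.12 for SAT1 at 48 h. SRM in si-A2 against si-A1 at 48 h ranged from -0.055 to 0.26. The change of the si-A1 effect, for which leaving out arrays was added after seeing the data, ranged from -0.069 to 0.16 for AMD1, from -0.13 to 0.13 for SRM and from -0.18 to 0.22 for SAT1, and that of si-A2 for SRM from -0.15 to 0.18.

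With the replicate block, SAT1 after si-A2 at 48 h was 0.025 and AMD1 lost its call, while at 24 h SMS kept both of its calls and OAZ1 lost its call in si-A2 against si-A1 (adjusted p = 0.0288); at 24 h the numbers do not pair the samples, and the block gave 320, 305 and 46 probes in place of 494, 416 and 164. Over the alternatives without the dim array, the number of all probes past the thresholds was between 175 and 661 after si-A1, 191 and 529 after si-A2 and 29 and 409 between both at 24 h, and between 1093 and 3371, 0 and 592, and 6 and 957 at 48 h. For the changed effects it was between 8 and 88 for si-A1 and between 3 and 27 for si-A2. With the dim array it was 27, 0 and 0 at 48 h. All 9 and 7 member probes were well above background on every array used, and the number of arrays limits the precision.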
